A study of Mus musculus with 12 samples.

Results

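Among 33696 genes counted in thymic and splenic T cell precursors and γδ T cells, 10 were followed here: Nucb2, Chd7, Rbm47, Nav1, Sidt1, Cdc14b, Rgmb, Trim26, Acsf2 and Pdlim4. They had been picked because their level and the share of cells with a molecule of their RNA were higher in libraries labelled KO than in libraries labelled WT, among double negative (DN) thymocytes with 2 or more UMIs of Ptcra. A UMI (unique molecular identifier) marks 1 captured RNA molecule. That comparison in DN cells is therefore described without a test, and the tests concern what the same genes did in thymic and splenic γδ T cells. The cells came from adult mice on a C57BL6/J background, older than 5 weeks, that were wild type (WT) or carried a germline deletion of Gfi1 (KO), so that every cell of a KO mouse, including the stroma, lacked the gene. Thymic DN1-DN3 cells were sorted together, thymic γδ T cells were sorted in pools of their own, and splenic γδ T cells were sorted from spleens, in all cases after magnetic depletion of B cells, myeloid cells and NK cells, with part of the CD8+ cells also removed from the thymus. Each of 6 pools mixed cells of both genotypes, told apart by hashtag antibodies, and gave 1 WT and 1 KO library, so that each of the 3 compartments has 2 libraries of either genotype, 12 in all. Nothing in the labels says that the pools of a compartment held different mice, so p-values measure the spread between libraries, which may be technical.

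GFI1 is a zinc finger protein that represses transcription and recognises DNA sites with the core AATC. T cell precursors pass through the DN1, DN2 and DN3 stages, in that order, and in DN3 cells the pre-TCR α chain, encoded by Ptcra, pairs with a rearranged β chain and carries the cells onto the αβ path. Cells that rearrange γ and δ genes leave toward the γδ lineage instead, and some of these become γδT17 cells, which make IL-17 and depend on transcription factors such as c-MAF.

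The 10 genes share no protein family. Chd7 encodes a chromatin remodelling enzyme and Rbm47 an RNA-binding protein that acts with the C-to-U editing enzyme of apolipoprotein B mRNA. Trim26 encodes an E3 ubiquitin ligase and Cdc14b a dual-specificity phosphatase of the cell cycle. Rgmb, also called DRAGON, encodes a membrane-anchored co-receptor for bone morphogenetic proteins (BMPs) that binds neogenin and PD-L2. Sidt1 encodes a transmembrane protein of the family that moves RNA across membranes, Nucb2 a calcium-binding protein from which the peptide nesfatin-1 is cut, and Acsf2 a mitochondrial protein of the acyl-CoA synthetase family. Nav1 encodes a microtubule-associated protein first known from neurons, and Pdlim4 a PDZ and LIM domain protein that binds actin structures. The files list them as ENSMUSG00000030659 (Nucb2), ENSMUSG00000041235 (Chd7), ENSMUSG00000070780 (Rbm47), ENSMUSG00000009418 (Nav1), ENSMUSG00000022696 (Sidt1), ENSMUSG00000033102 (Cdc14b), ENSMUSG00000048027 (Rgmb), ENSMUSG00000024457 (Trim26), ENSMUSG00000076435 (Acsf2) and ENSMUSG00000020388 (Pdlim4).

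Since the genes were high together in libraries labelled as lacking a DNA-binding repressor, their promoters were read. RefSeq windows of assembly GRCm38.p6 run from 250 bases before to 50 bases after each annotated start and are 300 bases long, and 9 of the 10 genes had at least 1 window, 14 windows in all. The core AATC was searched on both strands, as AATC or GATT, and the longer AAATCA as AAATCA or TGATTT, which contains the core. AATC stood in 10 of the 14 windows, against 73.1% of all 32851 windows of this length, and AAATCA stood in 4 of the 14, against 14.0% of all windows. All 4 belong to 2 genes, since each of the 3 windows of Rbm47 holds 1 match and the window of Sidt1 holds the other. Windows of a gene are not independent: overlapping windows of Rgmb hold the same AATC site, which is counted in each. The windows below show both genes with AAATCA, the window with the most AATC matches (Trim26, 5) and a gene with 0 (Nucb2), with the matches on either strand in capitals, 5′ to 3′ on the strand of the gene. A match describes the letters of the window, and no binding was measured here.
Rbm47 promoter window, GRCm38.p6 chr5:66151905-66152204, minus strand: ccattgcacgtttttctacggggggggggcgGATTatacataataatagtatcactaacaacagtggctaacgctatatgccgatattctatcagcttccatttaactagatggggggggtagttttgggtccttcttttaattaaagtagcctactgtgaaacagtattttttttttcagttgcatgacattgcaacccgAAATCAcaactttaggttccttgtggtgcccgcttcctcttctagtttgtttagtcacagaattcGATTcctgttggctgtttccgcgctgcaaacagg
Sidt1 promoter window, GRCm38.p6 chr16:44332789-44333088, minus strand: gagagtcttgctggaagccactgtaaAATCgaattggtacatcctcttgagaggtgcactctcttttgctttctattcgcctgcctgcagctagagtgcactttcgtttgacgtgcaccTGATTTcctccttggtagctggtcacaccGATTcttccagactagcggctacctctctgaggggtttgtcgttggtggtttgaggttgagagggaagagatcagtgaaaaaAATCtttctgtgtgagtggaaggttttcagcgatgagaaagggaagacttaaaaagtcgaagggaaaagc
Trim26 promoter window, GRCm38.p6 chr17:36836896-36837195, plus strand: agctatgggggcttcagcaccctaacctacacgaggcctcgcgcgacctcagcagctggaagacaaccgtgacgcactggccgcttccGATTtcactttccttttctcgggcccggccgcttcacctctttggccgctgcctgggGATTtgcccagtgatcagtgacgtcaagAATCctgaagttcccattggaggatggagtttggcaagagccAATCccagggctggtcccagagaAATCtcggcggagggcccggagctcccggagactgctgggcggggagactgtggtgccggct
Nucb2 promoter window, GRCm38.p6 chr7:116504119-116504418, plus strand: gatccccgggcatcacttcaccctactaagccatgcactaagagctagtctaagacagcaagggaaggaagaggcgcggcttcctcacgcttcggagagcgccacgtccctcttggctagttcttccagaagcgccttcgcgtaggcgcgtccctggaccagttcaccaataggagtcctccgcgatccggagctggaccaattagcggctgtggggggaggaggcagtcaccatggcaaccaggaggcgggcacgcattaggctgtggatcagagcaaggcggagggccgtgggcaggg
All 4 of these genes had far higher levels in KO than in WT gated DN cells (Nucb2 21.6-fold, Rbm47 19.3-fold, Sidt1 16.9-fold and Trim26 7.62-fold), and 3 of the 9 genes with a window, Nav1, Acsf2 and Nucb2, held no AATC in any window.

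The depth was similar across libraries. The 12 libraries held 42091895 to 71663962 UMIs over 96911 kept cells, with a median of 4947 to 6853 UMIs per cell in a library. The hashtag of the named genotype was the larger in 99.59% to 100% of the barcodes of a library, which only shows how the files were split. WT and KO libraries of 1 pool shared 0 barcodes (6 pairs), and other pairs of libraries shared 5 to 34 (60 pairs). No drop of Gfi1 itself was seen in KO: in gated DN cells it stood at 52.3 and 45.8 CPM (UMIs of a gene as a share of all UMIs of the library or class of cells, scaled to 1e6) in the WT libraries and at 107 and 74.0 CPM in the KO libraries. Reads at the 3′ end of a transcript can lie outside a deleted part, and where the deletion lies was not analysed here, so this level does not check the labels.

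The cells with 2 or more UMIs of Ptcra, called gated DN cells here, numbered 1607 and 2026 in the 2 WT libraries and 1048 and 2268 in the 2 KO libraries, which is 22.3%, 27.1%, 15.0% and 30.0% of their kept cells. Their median depth was 7410, 6594, 7397 and 6980 UMIs per cell in the same order. They carried the markers of DN3 cells in both genotypes: Il2ra, which encodes CD25, stood at 637 and 528 CPM in WT and 569 and 579 CPM in KO, and Notch3 at 270 and 245 CPM in WT and 301 and 276 CPM in KO. Trdc, the constant gene of the δ chain, was at 147 to 170 CPM, against 1233 to 2051 CPM in the sorted γδ T cells. The gated cells were therefore DN3-like by these markers, in both genotypes.

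In gated DN cells, each of the 10 genes was under 10 CPM in both WT libraries and was higher in both KO libraries, by 7.62-fold (Trim26) to 30.9-fold (Chd7). No KO library overlapped a WT library for any of them. Of the 12328 genes that passed the filter on low counts in these cells, 24.6% had both KO libraries above both WT libraries, and since this contrast chose the 10 genes, their count is no result. The median over the 10 genes of the log2 ratio of mean CPM was 4.18, and it was 4.14 in the first pool and 4.07 in the second.

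Nucb2 had 2.36 and 2.86 CPM in the WT libraries and 60.9 and 52.2 CPM in the KO libraries, a ratio of means of 21.6. Chd7, the chromatin remodeller, had 2.48 and 1.09 CPM in WT and 62.5 and 47.9 CPM in KO. Rbm47, the RNA-binding editing cofactor, had 3.13 and 3.44 CPM in WT and 67.8 and 58.9 CPM in KO. These 3 genes were rare transcripts in WT and had over 45 CPM in KO. The RNA-transport family gene Sidt1 had 3.72 and 3.07 CPM in WT and 64.2 and 50.8 CPM in KO, and the ubiquitin ligase gene Trim26 had 9.97 and 8.22 CPM in WT and 73.0 and 65.6 CPM in KO. Nav1 had 2.48 and 2.76 CPM in WT and 44.4 and 41.0 CPM in KO. The first pool gave the higher KO value for all 6, and also for the 4 that follow.

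The smallest ratios after Trim26 belonged to the phosphatase gene Cdc14b, with 4.66 and 4.16 CPM in WT and 41.2 and 32.8 CPM in KO (8.38-fold), and to Acsf2, with 2.24 and 2.76 CPM in WT and 28.7 and 24.4 CPM in KO (10.6-fold). Rgmb, the BMP co-receptor gene, had 1.65 and 0.833 CPM in WT and 28.6 and 25.7 CPM in KO (21.9-fold). Pdlim4 had 1.12 and 0.989 CPM in WT and 31.9 and 31.0 CPM in KO (29.8-fold). The WT values of Rgmb rest on 28 and 16 UMIs, those of Pdlim4 on 19 UMIs in each library, and the WT value of Chd7 in the second library rests on 21. The ratio differed between the pools for Chd7 (25.2-fold in the first and 43.8-fold in the second) and Rgmb (17.3-fold and 30.9-fold), and less for Pdlim4 (28.5-fold and 31.3-fold). These CPM values are compared between libraries for 1 gene, not between genes.

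**Figure D1:**
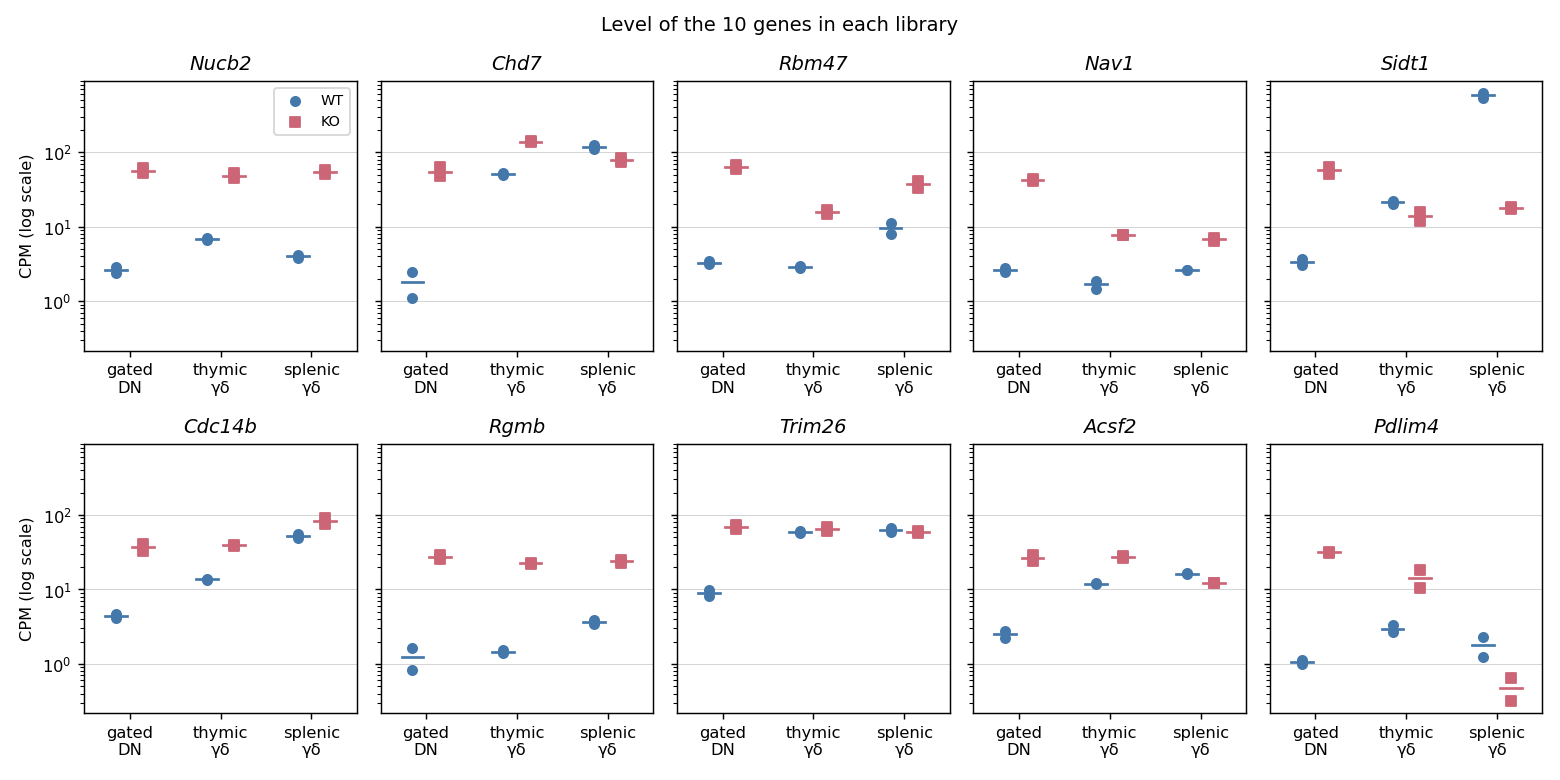
Level of each of the 10 genes in gated DN cells, in thymic γδ T cells and in splenic γδ T cells, in CPM on a log axis, with 1 point per library (2 labelled WT and 2 labelled KO in each compartment). In gated DN cells all KO points lie above all WT points, whereas in spleen the KO points of Sidt1 (18.6 and 17.4 CPM) lie far below the WT points (542 and 620 CPM).

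The higher level came with more cells that held a UMI. Trim26 was found in 8.96% and 7.06% of gated WT cells and in 45.3% and 39.9% of gated KO cells. Nucb2 was found in 2.43% and 2.42% of WT cells and in 38.6% and 33.3% of KO cells, and Rbm47 in 2.92% and 3.06% of WT cells and 38.1% and 33.1% of KO cells. At the low end, Pdlim4 was found in 1.06% and 0.938% of WT cells and in 18.7% and 15.7% of KO cells. The 6 genes in between had KO shares of 18.0% to 36.1%. Cells with a UMI also held more of them: the mean number of Sidt1 UMIs per cell with any was 1.40 and 1.25 in WT and 2.07 and 1.95 in KO, and that of Chd7 was 1.14 and 1.05 in WT and 1.59 and 1.51 in KO.

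Shares of this kind depend on depth, so each cell was also thinned to 3000 UMIs, which left out 40 and 66 shallower WT cells and 21 and 69 shallower KO cells. The mean share over the 10 genes was then 12.98% in KO and 0.988% in WT, a difference of 11.99 percentage points (12.99 in the first pool and 11.0 in the second), against 27.8% and 2.82% without thinning. Thinned shares in KO ran from 6.91% (Rgmb in the second pool) to 20.8% (Trim26 in the first), and the highest in WT was 3.83%, again for Trim26. Free RNA in a droplet can put UMIs into cells that do not make the transcript. The share of Pdlim4 in DN cells with 2 or more UMIs of Il2rb and no Ptcra, a class in which it was near 0 in WT, was 0.235% and 0.688% of the KO cells at the same 3000 UMIs, and the KO shares of Pdlim4 in gated cells, 8.96% and 7.78%, were above that. Median depth before thinning was 5642 and 5127 UMIs in those cells and 7397 and 6980 UMIs in the gated cells. This comparison covers Pdlim4 only, and no such share is given for the other genes. The part of free RNA in the shares of the 10 genes was not tested.

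Single KO cells often held several of the 10 genes at once. The shares of the single genes, on which they were picked, already set the mean number per cell. Whether the genes occurred together more often than these shares give was not tested. A gated WT cell held a UMI of none of them in 73.4% and 78.1% of cells, and a gated KO cell in 5.15% and 8.73%. At least 3 of the 10 genes were found in 0.747% and 0.494% of WT cells and in 58.5% and 46.8% of KO cells, and at least 5 in 0 of 1607 (which allows a share of up to 0.187%) and 0.0494% of WT cells and in 19.3% and 11.8% of KO cells. The median gated KO cell held 3 of them in the first pool and 2 in the second, and the median WT cell held 0 in both. After thinning to 3000 UMIs, cells with none were 89.6% and 91.5% in WT and 23.6% and 30.5% in KO, and cells with at least 3 were 0.0638% and 0 of 1960 (a share of up to 0.153%) in WT and 16.3% and 11.9% in KO. At this depth most gated KO cells still held at least 1 of the 10 genes and most WT cells none.

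**Figure D2:**
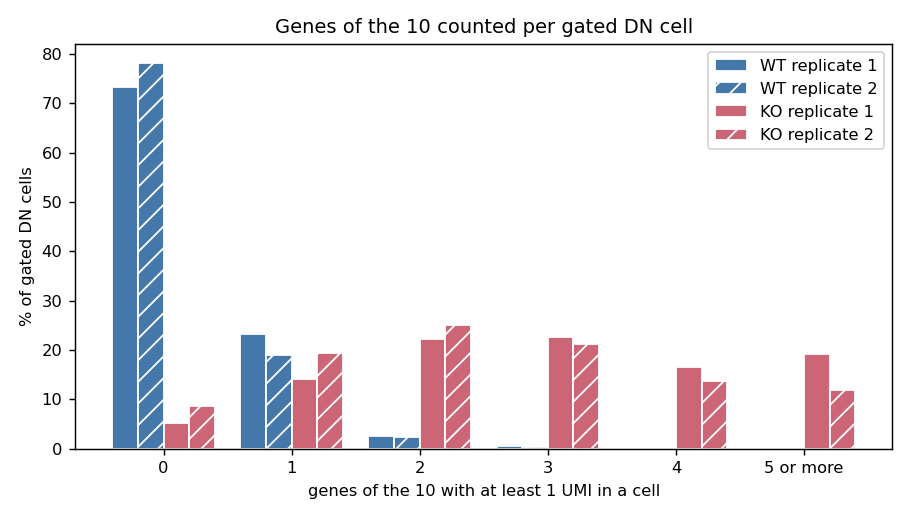
Share of gated DN cells, in percent, by how many of the 10 genes had a UMI in the cell, for each of the 2 libraries labelled WT and the 2 labelled KO, without thinning. The WT libraries peak at 0 genes (73.4% and 78.1% of cells), while the KO libraries spread over several genes, with 58.5% and 46.8% of cells at 3 or more. The genes were picked on their shares in these cells.

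The ratio was lower in cells with fewer Ptcra UMIs. DN cells with exactly 1 UMI of Ptcra, just outside the limit, had a median log2 ratio of 3.78 over the 10 genes, and cells with exactly 2, just inside it, had 4.16. Cells with 0 had 3.14, and all DN1-DN3 cells together 3.63. Within the gate, cells with a UMI of the proliferation genes Mki67 or Top2a had a median of 4.16 and cells without one 4.19. In each of these classes all 10 genes were higher in both KO libraries, against a background share of the 12328 genes tested in gated cells. That share was 20.9% with exactly 1 UMI of Ptcra, 23.1% with exactly 2, 25.4% with 0 and 24.7% in all DN1-DN3 cells, and within the gate 24.6% with and 20.5% without a UMI of the proliferation genes. Most of these classes share cells with the gate that chose the genes, so these ratios and counts are a description. Since the genes were picked inside the gate, the choice itself favours a larger ratio there than outside it.

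Markers of γδT17 cells were also higher in the gated KO cells. The summed level of a list of 11 such markers, all detected, was 72.5 to 81.8 CPM in the WT libraries and 454 to 571 CPM in the KO libraries. The highest of them in KO was Scart1, a scavenger receptor gene, at 16.8 and 18.3 CPM in WT and 277 and 277 CPM in KO. Il17a was at no more than 0.936 CPM and Trgv6, the segment of the innate Vγ6 chain, at no more than 1.46 CPM in any of the 4 libraries. The 5 markers of Il2rb-type lymphocytes summed to 3.12 to 5.61 CPM in WT and 15.1 to 27.7 CPM in KO, and the 4 cycling genes to 886 to 952 CPM in WT and 608 to 708 CPM in KO. B cell markers summed to 22.9 to 27.9 CPM in WT and 29.1 to 32.1 CPM in KO, nearly all Cd79b, with Ebf1 at 0.118 and 0.260 CPM in WT and 1.04 and 1.00 CPM in KO. Myeloid markers summed to 90.2 to 94.0 CPM in WT and 85.9 to 91.5 CPM in KO, mostly Cst3, with Lyz2 at 7.55 and 7.81 CPM in WT and 2.497 and 1.71 CPM in KO. Red cell globins were at 0.

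When gated cells with any UMI of Maf, Blk, Scart1, Cd79a, Il2rb or 1 further marker of γδT17 cells were left out, 1018 and 1367 WT cells and 215 and 551 KO cells remained. In them the γδT17 markers summed to 15.9 to 25.7 CPM in WT and 42.6 to 44.7 CPM in KO, and the median log2 ratio of the 10 genes was 4.13. These cells are a subset of the gate that chose the genes, so the values are a description. Rbm47 had 2.64 and 3.18 CPM in WT and 84.0 and 71.3 CPM in KO there, and Nucb2 had 2.20 and 2.65 CPM in WT and 64.3 and 53.1 CPM in KO. The lowest ratio was that of Trim26, 6.59-fold, and the highest that of Pdlim4, 33.0-fold, with 0.989 and 1.06 CPM in WT and 45.8 and 21.9 CPM in KO.

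The same genes were then read in 3 classes of DN cells without Ptcra UMIs. Cells with 2 or more UMIs of Kit, a receptor of the earliest thymic progenitors, were few (226 and 140 in WT, 71 and 58 in KO), and all 10 genes were higher in both KO libraries, with a median log2 ratio of 2.68, where 18.7% of the 12328 genes were higher in both. Some WT levels were near the floor there, at 0.736 and 1.30 CPM for both Nav1 and Rgmb and 0.368 and 3.91 CPM for Pdlim4. Myeloid markers in this class summed to 134 to 138 CPM in WT and 477 to 758 CPM in KO, and Il2rb-type markers to 9.76 to 16.2 CPM and 51.1 to 117 CPM. The part of these lists in the values of the class was not tested. Cells with 3 or more UMIs over 5 genes of γδT17 cells (among them Maf, Blk, Scart1 and Trgv6, called the 5 genes from here on) made up 4.57% and 4.49% of the WT and 44.0% and 26.7% of the KO libraries, and the median log2 ratio in them was 2.51, again with all 10 higher in both KO libraries, as were 25.7% of the 12328 genes. Il2rb-type markers summed to 47.2 to 59.4 CPM in WT and 132 to 215 CPM in KO in these cells. Cycling genes summed to 1196 to 1288 CPM in WT and 501 to 776 CPM in KO, and the part of both lists was not tested.

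Cells with 2 or more UMIs of Il2rb, the receptor chain shared by IL-2 and IL-15, did not keep this pattern for all of the 10 genes. They numbered 119 and 115 in WT and 878 and 473 in KO. Sidt1 was lower there in both KO libraries (69.2 and 89.1 CPM) than in both WT libraries (150 and 128 CPM). Chd7 overlapped, with 118 and 94.3 CPM in WT and 104 and 101 CPM in KO, as did Trim26, with 59.9 and 47.2 CPM in WT and 66.4 and 58.3 CPM in KO, and Cdc14b, with 23.96 and 16.3 CPM in WT and 22.3 and 27.3 CPM in KO. Rgmb was at 7.49 and 8.13 CPM in WT and at 20.5 and 21.7 CPM in KO. Nucb2 rested on 1 UMI in all in the WT cells, Nav1 on 3 and Pdlim4 on 0, so no ratio is given for them. Rbm47, at 4.49 and 6.51 CPM in WT and 17.5 and 8.98 CPM in KO, was higher in both KO libraries. So was Acsf2, at 13.5 and 8.13 CPM in WT and 21.1 and 24.9 CPM in KO. Thus 4 of the 10 genes were not higher in both KO libraries in this class. The others were, Nucb2, Nav1 and Pdlim4 among them on few WT UMIs, where 21.6% of the 12328 genes were higher in both. In cells with 2 or more UMIs of the B cell gene Cd79a and no Ptcra, 3 of the 10 genes (Rbm47, Cdc14b and Acsf2) were higher in both KO libraries, against 17.3% of the 12328 genes, but that class held only 7 and 4 WT cells and 15 and 47 KO cells.

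**Figure D3:**
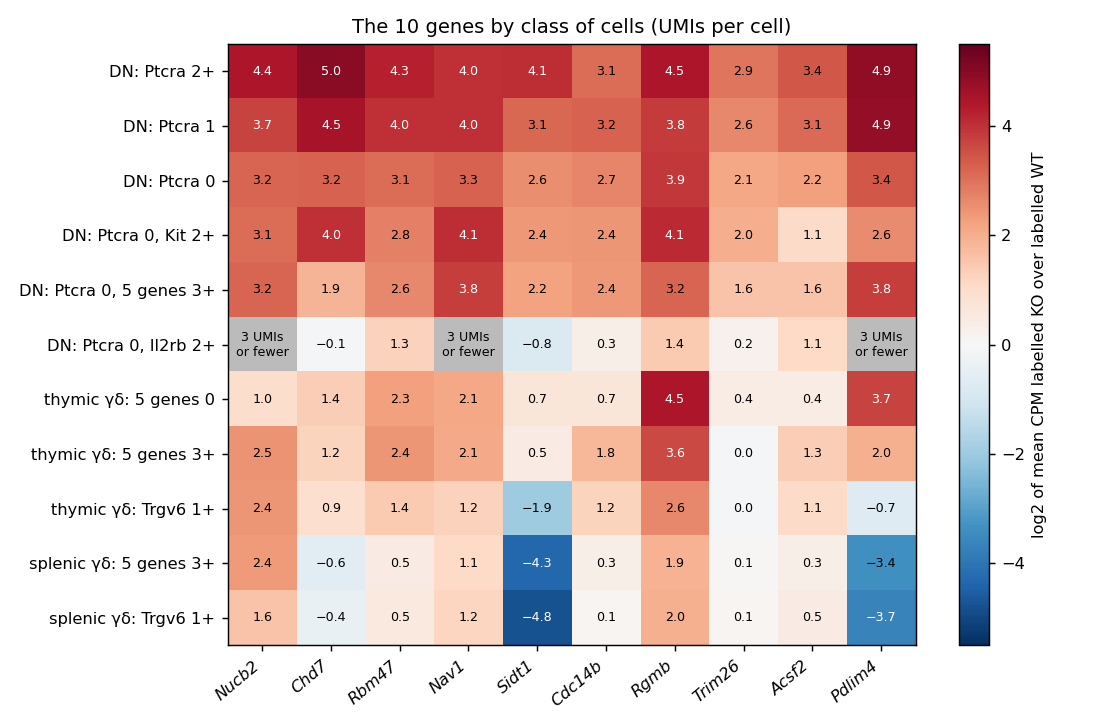
Log2 ratio of mean CPM, KO over WT, of each of the 10 genes (columns) in 11 classes of cells (rows) defined by UMI counts, with red for higher in KO, blue for lower and grey where a genotype held 3 UMIs or fewer. The DN classes drawn, other than Il2rb, are red throughout (Ptcra 2+ from 2.93 to 4.95), and the splenic classes mix red (Nucb2 2.36) and blue (Sidt1 −4.32, Pdlim4 −3.35).

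The next question was whether γδ T cells carried the same difference. The values that picked the 10 genes came from DN cells, but results of these γδ libraries were already known when the genes were chosen. The tests here compare summed UMI counts per library with the quasi-likelihood test of edgeR, in 1 fit of the 12 libraries, with Benjamini-Hochberg adjustment over 14911 genes, and a gene is called at an adjusted p below 0.05. In these whole-library sums, fewer cells of a type and less RNA per cell cannot be told apart. The γδT17 markers summed to 1050 to 1238 CPM in WT and 6923 to 8263 CPM in KO thymic γδ T cells, and to 857 to 902 CPM in WT and 9491 to 9945 CPM in KO splenic γδ T cells. Their part in the whole-library results was addressed only by the classes of cells given further on. Myeloid markers also stood higher in KO, at 90.9 to 96.6 CPM in WT and 176 to 186 CPM in KO in thymus and 92.6 to 107 CPM in WT and 315 to 338 CPM in KO in spleen. Nearly all of these sums was Cst3, a protease inhibitor gene, at 95.6 and 88.7 CPM in WT and 185 and 174 CPM in KO in thymus, and at 102 and 90.7 CPM in WT and 312 and 337 CPM in KO in spleen. The defining myeloid genes Itgam and Csf1r stayed under 1 CPM in each of these 8 libraries. Cycling genes summed to 879 to 1063 CPM in WT and 193 to 238 CPM in KO in thymus. In spleen the Il2rb-type markers summed to 510 to 538 CPM in WT and 135 to 153 CPM in KO, the markers of αβ T cells to 199 to 250.97 CPM and 60.0 to 65.2 CPM, the B cell markers to 26.8 to 30.8 CPM and 52.7 to 52.9 CPM, and the globins to 28.0 to 32.6 CPM and 59.3 to 137 CPM. The part of these lists in the whole-library results was not tested.

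In thymic γδ T cells, 9 of the 10 genes were called higher in KO and 1, Sidt1, lower. The background was high, since 26.1% of all genes tested were called higher and 23.7% lower. The median log2 difference of the 10 genes was 1.98, against −0.0018 over all genes tested. The differences were thus large for most of the 10, but smaller than in gated DN cells, a contrast that was not tested because the DN values chose the genes. That choice favours larger values in gated DN cells.

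Rgmb, the BMP co-receptor gene, showed the largest difference of the 10 in thymic γδ T cells. It stood at 1.53 and 1.38 CPM in WT and at 22.3 and 22.9 CPM in KO, a log2 change of 4.08 ± 0.13 (standard error, SE; edgeR adjusted p = 5.95e-08). Nucb2 rose from 7.09 and 6.60 CPM to 45.1 and 52.2 CPM (2.96 ± 0.12, edgeR adjusted p = 3.99e-07). Neither gene overlapped between the genotypes. Rbm47 rose from 2.94 and 2.80 CPM to 15.1 and 16.7 CPM (2.59 ± 0.18, edgeR adjusted p = 5.56e-06), and Nav1 from 1.48 and 1.90 CPM to 7.77 and 7.85 CPM (2.33 ± 0.15, edgeR adjusted p = 4.52e-06). Pdlim4, the actin-associated gene, rose from 3.29 and 2.68 CPM to 18.1 and 10.4 CPM (2.37 ± 0.37, edgeR adjusted p = 0.000548), with the widest gap between its KO libraries.

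Another 3 genes, which WT thymic γδ T cells already carried at over 10 CPM in both libraries, also rose. Chd7 went from 52.2 and 49.0 CPM to 137 and 141 CPM (1.58 ± 0.14, edgeR adjusted p = 1.46e-05), Cdc14b from 13.5 and 13.9 CPM to 38.3 and 39.7 CPM (1.63 ± 0.09, edgeR adjusted p = 2.86e-06), and Acsf2 from 11.9 and 12.1 CPM to 26.7 and 27.9 CPM (1.31 ± 0.09, edgeR adjusted p = 5.76e-06). The 8 genes named so far kept their call in all 12 alternatives.

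Trim26 and Sidt1 were less stable. Trim26 stood at 61.8 and 58.1 CPM in WT and at 68.5 and 61.9 CPM in KO (0.24 ± 0.09, edgeR adjusted p = 0.0379). It lost its call in 8 of the 12 alternatives, among them leaving out any 1 of the 4 libraries (0.29 without the first WT library, 0.19 without the second, 0.21 without the first KO library and 0.28 without the second), with edgeR or DESeq2 adjusted p from 0.0177 to 0.231 over the 12. Sidt1 fell from 20.2 and 22.2 CPM to 15.8 and 12.1 CPM (−0.49 ± 0.13, edgeR adjusted p = 0.0116), and it lost its call without the second WT library (−0.43) or without the second KO library (−0.34), with adjusted p from 0.00112 to 0.109 over the 12 alternatives. In gated DN cells both genes had been among those far higher in KO.

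In splenic γδ T cells the 10 genes were split, with 5 called higher in KO, 4 lower and 1 not called. Of all genes tested, 28.6% were called higher and 26.1% lower, so that counts of 5 and 4 of 10 stood only somewhat above the background. The median log2 difference was 0.37 over the 10 genes and 0.0033 over all genes tested.

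Sidt1 showed the largest difference of the 10 in spleen, in the opposite direction to gated DN cells. It fell from 542 and 620 CPM in WT to 18.6 and 17.4 CPM in KO (−4.92 ± 0.15, edgeR adjusted p = 2.9e-08). Nucb2 rose from 3.78 and 4.20 CPM to 50.8 and 58.0 CPM (3.86 ± 0.13, edgeR adjusted p = 3.04e-08). Rgmb rose from 3.44 and 3.90 CPM to 22.9 and 25.2 CPM (2.80 ± 0.12, edgeR adjusted p = 9.49e-08). Rbm47 rose from 11.2 and 7.95 CPM to 40.8 and 33.6 CPM (2.06 ± 0.17, edgeR adjusted p = 4.8e-06), Nav1 from 2.59 and 2.59 CPM to 6.47 and 7.02 CPM (1.48 ± 0.15, edgeR adjusted p = 1.82e-05), and Cdc14b from 55.5 and 49.4 CPM to 75.6 and 89.7 CPM (0.75 ± 0.09, edgeR adjusted p = 6.29e-05). These 6 calls held in all 12 alternatives.

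The other 3 genes called lower in spleen had smaller or less certain differences. Chd7 fell from 111 and 127 CPM to 83.6 and 73.1 CPM (−0.50 ± 0.13, edgeR adjusted p = 0.00935), and Acsf2 from 16.1 and 16.6 CPM to 12.03 and 12.1 CPM (−0.34 ± 0.09, edgeR adjusted p = 0.00972). Pdlim4 was a rare transcript in spleen and fell from 1.24 and 2.34 CPM to 0.641 and 0.317 CPM (−1.88 ± 0.47, edgeR adjusted p = 0.00673). Each of the 3 lost its call without the second WT library (Chd7 −0.40, Acsf2 −0.32, Pdlim4 −1.33) and without the second KO library (−0.38, −0.32 and −1.38). Adjusted p over the 12 alternatives ran from 0.00112 to 0.0853 for Chd7, from 0.000427 to 0.0550 for Acsf2 and from 7.38e-05 to 0.0761 for Pdlim4. Trim26, at 58.7 and 67.9 CPM in WT and 57.0 and 61.3 CPM in KO, was not called (−0.0026 ± 0.09, edgeR adjusted p = 0.985), except when scaled by library totals only (−0.23, adjusted p = 0.0491) among the 12 alternatives.

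**Figure D4:**
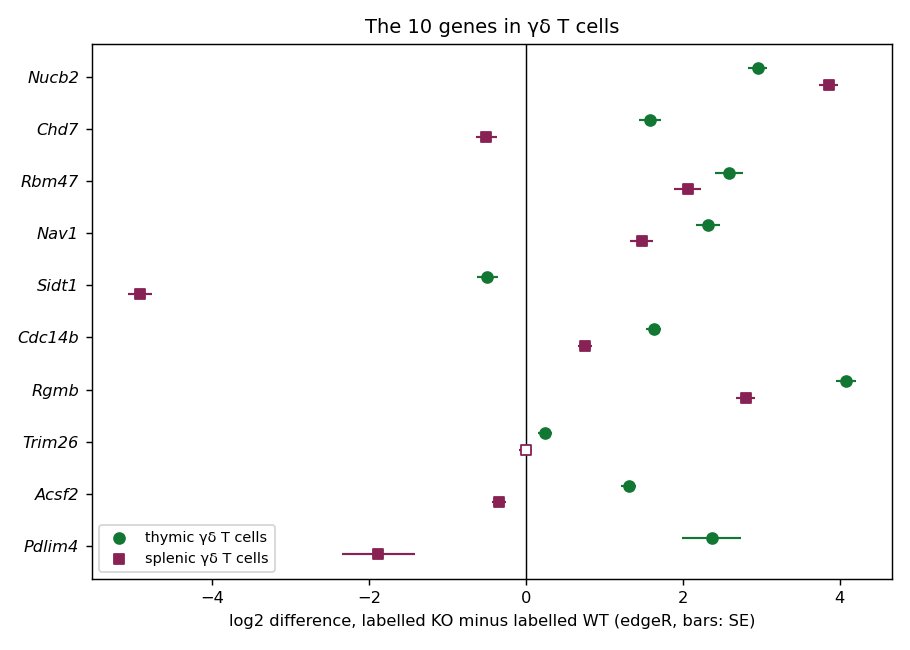
Log2 difference, KO minus WT, of the 10 genes in thymic and in splenic γδ T cells, from 1 edgeR fit of the 12 libraries, with bars for the standard error, filled markers for genes called at an adjusted p below 0.05 and open markers for the rest. Nucb2 lies further right in spleen (3.86) than in thymus (2.96), and the splenic markers of Sidt1 (−4.92) and Pdlim4 (−1.88) lie left of 0.

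An interaction term of that fit, on whole-library sums, asked whether KO and WT differed by unequal amounts in spleen and thymus. The make-up of the WT libraries differed between the tissues, as given further on. No interaction was tested within a class of cells. The interaction term was called for 8 of the 10 genes. Of these, Nucb2 had the larger effect in spleen (0.90 ± 0.16 on the log2 scale, edgeR adjusted p = 0.00278), and 7 had an effect in spleen below that in thymus, against 13.6% of all genes above and 15.9% below. The largest such gaps were those of Sidt1 (−4.43 ± 0.19, edgeR adjusted p = 3.13e-06), Pdlim4 (−4.25 ± 0.59, edgeR adjusted p = 0.000806) and Chd7 (−2.09 ± 0.19, edgeR adjusted p = 7.52e-05). Acsf2 (−1.65 ± 0.13, edgeR adjusted p = 3.25e-05), Rgmb (−1.28 ± 0.16, edgeR adjusted p = 0.00044), Cdc14b (−0.88 ± 0.13, edgeR adjusted p = 0.000932) and Nav1 (−0.85 ± 0.21, edgeR adjusted p = 0.0131) followed. Without the first thymic WT library the difference of Nav1 lost its call (−0.68, adjusted p = 0.0580).

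Rbm47 (−0.53 ± 0.24, edgeR adjusted p = 0.122) and Trim26 (−0.25 ± 0.12, edgeR adjusted p = 0.157) were not called, which does not show that their effects were equal. Without the second splenic WT library the difference of Rbm47 was called (−0.77, adjusted p = 0.0343), and with the pool as a replicate block it was called too (−0.52, adjusted p = 0.0279). Without the first splenic WT library that of Trim26 was called (−0.40, adjusted p = 0.0422). Chd7, Acsf2 and Pdlim4 had thus been called higher in KO in thymic γδ T cells and lower in whole spleen, with a difference between the tissues that was itself called.

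The libraries labelled KO differed from WT in which γδ T cells they held, so the 10 genes were also compared within classes. Cells with 3 or more UMIs of the 5 genes of γδT17 cells made up 54.7% and 50.7% of the WT and 91.0% and 95.4% of the KO cells in thymus, and 14.5% and 16.3% of the WT and 99.1% and 99.4% of the KO cells in spleen. Since this class took most WT thymic cells, it does not isolate γδT17 cells, and the summed γδT17 markers within it still differed (1711 to 1966 CPM in WT and 7479 to 8610 CPM in KO in thymus, 3500 to 4613 CPM and 9590 to 9990 CPM in spleen). In the same class of thymic cells the cycling genes summed to 857 to 1107 CPM in WT and 179 to 232 CPM in KO, the Il2rb-type markers to 57.1 to 59.0 CPM and 138 to 153 CPM, and the myeloid markers to 88.2 to 94.8 CPM and 178 to 193 CPM. In splenic cells of the class these sums were 118 to 156 CPM and 66.5 to 78.9 CPM, 206 to 333 CPM and 133 to 149.6 CPM, and 149.9 to 209 CPM and 316 to 339 CPM. Their part in the values of the class was not tested. The tests in this and the next paragraphs used the 4 libraries of a tissue.

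Among thymic cells with 3 or more UMIs of the 5 genes, 8 of the 10 genes were called higher in KO and none lower, against 29.2% of genes called higher. Rgmb rose from 1.75 and 1.86 CPM to 22.3 and 22.9 CPM (3.75 ± 0.12, edgeR adjusted p = 1.37e-05), and Nucb2 from 9.64 and 8.76 CPM to 48.2 and 53.9 CPM (2.58 ± 0.11, edgeR adjusted p = 3.33e-05). Cdc14b, Chd7, Rbm47, Nav1, Acsf2 and Pdlim4 were called as well, with log2 differences from 1.34 (Chd7) to 2.51 (Rbm47). Sidt1, at 6.54 and 9.44 CPM in WT and 13.04 and 9.07 CPM in KO, overlapped (0.56 ± 0.24, edgeR adjusted p = 0.0961), and it was called without the second KO library (0.77, adjusted p = 0.0144). Trim26 overlapped too, with 69.4 and 64.8 CPM in WT and 68.5 and 61.2 CPM in KO (0.05 ± 0.07, edgeR adjusted p = 0.574).

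Thymic cells with 0 UMIs of the 5 genes numbered 1466 and 1802 in WT and only 200 and 94 in KO. Their median depth was 5697 and 5877 UMIs in WT and 4310 and 4496 UMIs in KO, and shallower cells reach 0 more easily. The cycling genes summed to 701 to 862 CPM in WT and 314 to 427 CPM in KO. The part of both in the values of the class was not tested. In these cells 6 of the 10 genes were called higher and none lower, where 6.13% of genes were called higher. Rgmb, at 1.25 and 0.699 CPM in WT and 23.2 and 19.7 CPM in KO, changed by 4.57 ± 0.48 on the log2 scale (edgeR adjusted p = 2.28e-05). Pdlim4 rose from 1.83 and 1.71 CPM to 23.2 and 23.7 CPM (3.78 ± 0.40, edgeR adjusted p = 2.56e-05), beside 31.9 and 31.0 CPM in gated KO DN cells. Chd7 rose from 44.8 and 41.8 CPM to 113 and 109 CPM (1.44 ± 0.13, edgeR adjusted p = 7.56e-06).

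Rbm47 (2.23 ± 0.55, edgeR adjusted p = 0.0186), Nav1 (2.21 ± 0.63, edgeR adjusted p = 0.0385) and Cdc14b (0.84 ± 0.24, edgeR adjusted p = 0.0368) were called on few UMIs in these thymic cells with 0 UMIs of the 5 genes. Of the alternatives that gave an adjusted p, 3 of 9 lost the call of Rbm47, 3 of 7 that of Nav1 and 5 of 9 that of Cdc14b. The number of genes called fell to 3 without either WT library and to 4 without the first KO library, where Rgmb, Pdlim4 and Chd7 stayed called throughout. Rbm47 was not called without the first WT (adjusted p = 0.598), second WT (0.643) or first KO library (0.0506), and Nav1 not without the first KO library (0.373) nor with the pool as a replicate block (0.0762). Cdc14b was not called without the first WT (adjusted p = 0.225), second WT (0.276) or first KO library (0.776), nor under the block (0.0864). Nucb2, not called here (1.23 ± 0.53, edgeR adjusted p = 0.171), was called without the second KO library (1.58, adjusted p = 0.0401), and Sidt1 (0.59 ± 0.20, edgeR adjusted p = 0.0781) without the first (1.07, adjusted p = 0.000648). Sidt1 stood at 50.8 and 53.6 CPM in WT and 57.9 and 107 CPM in KO in this class. With the class widened to 1 UMI or fewer, Nucb2 (1.68, edgeR adjusted p = 0.00172), Sidt1 (0.56, 0.0374) and Trim26 (0.54, 0.00645) were called. In thymic cells with 1 or 2 UMIs of the 5 genes, Sidt1 stood at 30.9 and 27.6 CPM in WT and 43.7 and 70.1 CPM in KO. The lower KO level of Sidt1 in whole thymic libraries was thus not seen in classes by UMIs of the 5 genes. The class by Trgv6 that follows went the other way.

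A class of thymic γδ T cells with at least 1 UMI of Trgv6 was added after the values had been seen. It held 154 and 200 WT and 3149 and 3930 KO cells. Within it the cycling genes summed to 765.5 to 1008 CPM in WT and 76.7 to 124 CPM in KO. The myeloid markers summed to 103 to 105 CPM in WT and 190 to 224 CPM in KO. The paper found its thymic Trgv6+ cluster in KO mice only. The class therefore need not hold the same kind of cell in both genotypes. The part of this in the values of the class was not tested. Sidt1 was lower in KO there, at 15.4 and 13.03 CPM in WT and 4.63 and 2.76 CPM in KO (−1.86, edgeR adjusted p = 0.00252), in contrast to its values in cells with 0 UMIs of the 5 genes. Pdlim4 was at 5.35 and 3.80 CPM in WT and 3.45 and 2.10 CPM in KO (−0.62, edgeR adjusted p = 0.321). Nucb2 was higher there, at 9.36 and 13.03 CPM in WT and 61.4 and 59.4 CPM in KO (2.501, edgeR adjusted p = 1.00e-05), as was Rgmb, at 3.34 and 3.80 CPM in WT and 21.3 and 23.1 CPM in KO (2.72, edgeR adjusted p = 6.99e-05). In all, 7 genes were called higher and 1 lower in that class, where 21.1% of genes were called higher and 20.9% lower.

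Among splenic cells with 3 or more UMIs of the 5 genes (1137 and 1815 WT and 7747 and 11611 KO cells), 3 genes were called higher, 3 lower and 4 not, where 16.2% of genes were called higher and 17.4% lower. Nucb2 rose from 13.1 and 8.26 CPM to 51.3 and 58.2 CPM (2.42 ± 0.20, edgeR adjusted p = 0.000529), Rgmb from 6.85 and 5.98 CPM to 22.9 and 25.2 CPM (1.94 ± 0.14, edgeR adjusted p = 0.000295), and Nav1 from 2.91 and 3.43 CPM to 6.54 and 7.04 CPM (1.10 ± 0.21, edgeR adjusted p = 0.00772). Sidt1 fell from 182 and 392 CPM to 14.1 and 14.7 CPM (−4.30 ± 0.36, edgeR adjusted p = 0.000585). Pdlim4 fell from 3.20 and 5.71 CPM to 0.626 and 0.246 CPM (−3.41 ± 0.54, edgeR adjusted p = 0.00449), and Chd7 from 110 and 124 CPM to 83.4 and 72.5 CPM (−0.57 ± 0.13, edgeR adjusted p = 0.0146). The WT values of Sidt1 were themselves far apart in this class.

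Rbm47, called in whole spleen, was at 32.9 and 21.8 CPM in WT and 41.2 and 33.8 CPM in KO among these splenic cells (0.50 ± 0.22, edgeR adjusted p = 0.131), and it was called with the pool as a replicate block (0.50, adjusted p = 0.0192) and without the first WT library (0.82, adjusted p = 0.00730). Cdc14b, also called in whole spleen, was not called here (0.35 ± 0.13, edgeR adjusted p = 0.0698), except without the first WT library among those left out (0.51, adjusted p = 0.0134). Without the second KO library, Chd7 (−0.43, adjusted p = 0.118) and Nav1 (1.08, adjusted p = 0.0543) lost their calls and 4 genes stayed called. Acsf2, lower in KO in whole spleen, was not lower in this class, at 8.45 and 10.9 CPM in WT and 12.004 and 12.2 CPM in KO (0.32 ± 0.16, edgeR adjusted p = 0.179).

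Splenic cells with 0 UMIs of the 5 genes numbered 5093 and 5881 in WT but only 37 and 35 in KO. None of the 10 genes was called by edgeR, where 0.599% of genes were, 2 had an unadjusted p under 0.05, and DESeq2 called 2. In this class Rgmb was at 2.77 and 3.58 CPM in WT and 22.4 and 16.9 CPM in KO (2.75 ± 0.68, edgeR adjusted p = 0.0841), and it was called without the second KO library (2.92, adjusted p = 0.0277). Chd7 was at 111 and 126 CPM in WT and 152 and 225 CPM in KO (0.75 ± 0.20, edgeR adjusted p = 0.0994), and it was called without the first KO library (1.01, adjusted p = 0.0142) and with the pool as a replicate block (0.75, adjusted p = 0.0394). Sidt1 overlapped, with 635 and 697 CPM in WT and 578 and 652 CPM in KO. Globin genes of red cells summed to 22425 CPM in the cells of the first KO library and 50.6 CPM in those of the second, against 29.8 to 37.5 CPM in WT, so the call of Rgmb without the second KO library rests on the KO cells with the high globin level, and their part in these values was not tested.

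Each gene can be ordered by its level over the groups, taking WT and KO of gated DN cells, thymic γδ and splenic γδ T cells as 6 groups, as a description. Sidt1 was highest in splenic WT cells (542 and 620 CPM), then in gated KO DN cells (64.2 and 50.8 CPM), and lowest in gated WT DN cells, while its thymic WT (20.2 and 22.2 CPM) and splenic KO values (18.6 and 17.4 CPM) lay close together. Chd7 was highest in thymic KO cells (137 and 141 CPM) and then in splenic WT cells (111 and 127 CPM). Trim26 stood between 57.0 and 73.0 CPM in all groups but gated WT DN cells, where it was at 9.97 and 8.22 CPM, so that 5 of its 6 groups lay close together. Nucb2 was between 45.1 and 60.9 CPM in all 3 KO groups, which lay close together, and at most 7.09 CPM in all 3 WT groups. Rgmb was likewise higher in all 3 KO groups than in any WT group, with 22.3 to 28.6 CPM in the KO groups and at most 3.90 CPM in the WT groups. Pdlim4 was highest in gated KO DN cells, lower in thymic KO cells (18.1 and 10.4 CPM) and under 1 CPM in splenic KO cells. Chd7, Sidt1, Cdc14b, Trim26 and Acsf2, a group formed after the values were seen, had over 10 CPM in WT γδ T cells of both tissues, and 4 of these 5, all but Cdc14b, were not called higher in spleen. Of all genes tested, 28.6% were called higher in spleen and most were not, so this count lies near the background.

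Over the 12 whole libraries, 5 genes followed the mean standardised level of the 10 genes most closely among the 8595 genes averaging 10 CPM or more. They were Tmem185a (Pearson r = 0.955), Adam19 (0.938), Cpne3 (0.923), Appl2 (0.917) and Tnfaip1 (0.913), on log2(CPM + 1). The 12 points share pools, compartments and genotypes, so r is a description. Adam19, a metalloprotease gene, stood at 5.89 and 4.91 CPM in WT and 138 and 53.4 CPM in KO DN1-DN3 cells. Tmem185a, a transmembrane protein gene, stood at 5.24 and 5.09 CPM in WT and 17.3 and 16.6 CPM in KO of the same cells.

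Rgmb acts with receptors of the BMP pathway, and 19 genes of that pathway and of RGM partners were listed beside it. In the BMP family, type I receptors, activated by type II receptors, phosphorylate SMAD1, SMAD5 and SMAD9, which act with SMAD4 on targets such as the Id genes. In gated DN cells 15 of the 19 passed the filter, and 8 were called higher in KO and none lower, with a median log2 difference of 0.80, against −0.0071 over all genes tested, of which 10.5% were called higher and 6.55% lower. The type I receptor gene Acvr1 rose from 1.59 and 0.729 CPM to 14.3 and 15.5 CPM (3.72 ± 0.25, edgeR adjusted p = 2.52e-07). The type II receptor genes Acvr2a (1.35 ± 0.17, edgeR adjusted p = 8.00e-05) and Bmpr2 (1.23 ± 0.11, edgeR adjusted p = 4.11e-06) rose as well, and so did Id2 (1.38 ± 0.16, edgeR adjusted p = 0.000137), an inhibitor of E proteins. The γδT17 and Il2rb-type markers given above moved in the same cells, and their part in these values was not tested. The ligand genes Bmp2 and Bmp4 stood at no more than 0.208 CPM in any of the 4 libraries. Neo1, which encodes neogenin, stood at 0.260 to 0.728 CPM. The authors cite earlier work that names Id1 and Id2 among the genes regulated by GFI1, which was not tested here.

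**Figure D5:**
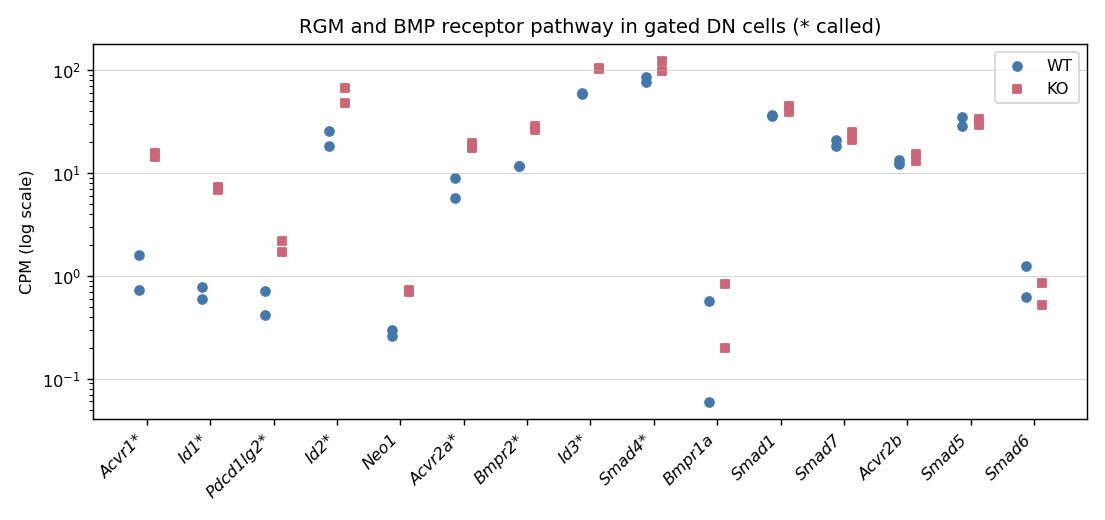
Level of the listed RGM and BMP pathway genes in gated DN cells, in CPM on a log axis, with 1 point per library (2 labelled WT and 2 labelled KO) and a star beside each gene called in edgeR. The KO points of Acvr1 (14.3 and 15.5 CPM) lie far above its WT points (1.59 and 0.729 CPM), and those of Bmpr2 (28.8 and 25.9 CPM) above 11.8 and 11.6 CPM.

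In γδ T cells the pathway genes did not move one way. In thymus 16 were tested, 5 rose (31.2%) and 4 fell (25.0%), with a median of 0.08, near the 26.1% and 23.7% of all genes. In spleen 3 of 16 rose (18.8%) and 10 fell (62.5%), with a median of −0.82, where 28.6% of all genes rose and 26.1% fell. Bmpr1a, another type I receptor gene, rose in thymus from 2.48 and 2.75 CPM to 47.0 and 60.3 CPM (4.48 ± 0.26, edgeR adjusted p = 3.39e-06) and in spleen from 8.05 and 5.95 CPM to 54.6 and 59.9 CPM (3.13 ± 0.24, edgeR adjusted p = 3.88e-06). Id2 rose in thymus (3.10 ± 0.34, edgeR adjusted p = 5.96e-05) and in spleen (2.52 ± 0.33, edgeR adjusted p = 0.000134), whereas Id3 fell in both (−1.70 ± 0.24, edgeR adjusted p = 0.000282, and −4.17 ± 0.27, edgeR adjusted p = 1.42e-06). Pdcd1lg2, which encodes the RGMB partner PD-L2, fell in spleen from 8.60 and 9.29 CPM to 1.67 and 0.863 CPM (−2.76 ± 0.41, edgeR adjusted p = 0.000311). The effect in spleen was below that in thymus for 10 of the 16 genes (62.5%, against 15.9% of all genes) and above for none.

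Relatives of the 10 genes by family, 20 in all, were listed too. In gated DN cells 14 were tested, 2 rose (14.3%, against 10.5% of all genes) and none fell, with a median log2 difference of 0.13. Pdlim5, a relative of Pdlim4, rose there from 37.1 and 30.5 CPM to 51.8 and 47.8 CPM (0.57 ± 0.10, edgeR adjusted p = 0.00138). In thymic γδ T cells 4 of 15 rose (26.7%) and 2 fell (13.3%), where 26.1% of all genes rose and 23.7% fell, so the share that rose was at the background. Among them were Nucb1, the paralog of Nucb2 (0.95 ± 0.11, edgeR adjusted p = 7.03e-05), which rose, and Pdlim1, which fell (−1.22 ± 0.10, edgeR adjusted p = 9.00e-06). In spleen 3 of 15 rose, against 28.6% of all genes, among them Nucb1 (1.46 ± 0.11, edgeR adjusted p = 3.05e-06). The 2 that fell (13.3%, against 26.1%) were Pdlim1 (−1.53 ± 0.10, edgeR adjusted p = 9.09e-07) and Chd6, a relative of Chd7 (−0.61 ± 0.08, edgeR adjusted p = 0.000151).

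Genes of thymic stages were listed as well. Of 11 tested genes of DN3 cells and the pre-TCR, with Ptcra left out because it set the gate, 3 rose in gated KO DN cells and none fell: Dtx1, a Notch target (1.00 ± 0.10, edgeR adjusted p = 8.08e-06), and the recombinase genes Rag1 (0.69 ± 0.12, edgeR adjusted p = 0.00102) and Rag2 (0.63 ± 0.11, edgeR adjusted p = 0.00107). Of 7 tested early progenitor genes 2 rose and none fell, among them Cd44 (1.47 ± 0.36, edgeR adjusted p = 0.0369). Over all genes tested in these cells 10.5% rose, and the median log2 difference was 0.17 for the DN3 and 0.31 for the early genes. In thymic γδ T cells 2 of 12 DN3 genes rose and 7 fell (58.3%), with a median of −0.96, and 1 of 9 early genes rose and 2 fell (22.2%), with a median of −1.26, where 26.1% of all genes rose and 23.7% fell. In spleen 3 of 12 DN3 genes rose and 5 fell (41.7%), with a median of −0.29, and 1 of 9 early genes, Cd44, rose and 4 fell (44.4%), with a median of −2.04, where 28.6% of all genes rose and 26.1% fell.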

How the data were processed

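Single-cell RNA was captured with 10x 3′ chemistry (v3.1), and the submitters' processing notes name Cell Ranger 8.0.1 and the mouse build GRCm39. The deposited values are UMI counts, not normalized, of each gene in barcodes that the authors had called as cells and assigned to a genotype by hashtag with hashsolo. How each library was grouped follows the hashtag in its labels. As the authors did, barcodes under 500 UMIs or 200 genes or over 20% mitochondrial counts were left out, which kept 96911 of 97404 barcodes. Doublets beyond the hashtag step were not sought.

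Counts were summed per library and class of cells, since cells are not replicates, and 9548 ribosomal, Gm-numbered and mitochondrial genes were left out of tests. The sums were tested with edgeR 4.0.16 (R 4.3.3, limma 3.58.1; quasi-likelihood, robust, TMM, default filter on low counts) and Benjamini-Hochberg adjustment, and the scripts were tested on simulated data. DESeq2 1.42.0, other scalings, filters, gates, libraries left out and the pool as a replicate block were alternatives. Other steps used pandas 2.3.3, numpy 2.4.6, scipy 1.17.1 and matplotlib 3.10.9 in Python 3.11.15. CPM values are shown without TMM factors. A log2 difference is KO minus WT with its standard error from the fit, and intervals of counting error cover UMIs only.

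Members and lists were chosen with earlier results of these data known. Named were all 10 genes, the 5 genes most like them, and from each list up to 4 of those called, by size, if they averaged 5 CPM or more. WT and KO libraries of a number share a pool, per the labels. Deviations of the libraries of a pool from their group means correlated over 14911 genes at 0.28 in DN cells, 0.0581 in thymic and 0.376 in splenic γδ T cells. With 2 libraries against 2, an exact permutation test of a single value cannot go below p = 0.33, so none was run. One marker of the 5 genes that define classes of γδ T cells is not reported here. Promoter windows came from RefSeq (GRCm38.p6) and were not joined to coordinates of the files.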

Additional observations from a re-analysis of the deposited data

Results flagged for a closer look

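For 8 of the 10 genes the KO minus WT difference of whole-library sums itself differed between splenic and thymic γδ T cells. The test was the interaction test of edgeR with Benjamini-Hochberg adjustment. In these sums, fewer cells of a type and less RNA per cell cannot be told apart. The make-up of the WT libraries differed between the tissues, and no interaction was tested within a class of cells. The splenic minus thymic log2 difference was −4.43 for Sidt1, −4.25 for Pdlim4, −2.09 for Chd7, −1.65 for Acsf2, −1.28 for Rgmb, −0.88 for Cdc14b, −0.85 for Nav1 and 0.90 for Nucb2. The adjusted p-values are given with the comparison of the tissues.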

How the results depend on the processing

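The median log2 ratio of the 10 genes in gated DN cells, 4.18, was 4.08 with a gate at 1 Ptcra UMI, 4.24 at 5, 3.63 without a gate and 3.69 with 1 CPM added, and 4.07 to 4.31 with 1 library left out. The difference in mean share, 11.99 points, was 8.19 at 2000 UMIs, 17.5 at 5000, 25.0 without thinning, and 10.9 to 13.1 with 1 library left out. The 10 genes called in thymic γδ T cells became 8 to 9, the 9 in spleen 6 to 9 and the 8 that differed between the tissues 7 to 9 with 1 library left out. Where an arm then held 1 library, it was assumed to vary like the others. In classes of cells these ranges were 3 to 7 (main count 6) for thymic cells with 0 UMIs of the 5 genes, where DESeq2 called 4, 8 to 9 (8) for thymic cells with 3 or more, 4 to 8 (6) for splenic cells with 3 or more, and 0 to 1 (0) for splenic cells with 0. In the last class DESeq2 and no filter each called 2 and the replicate block 1.

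With the pool as a replicate block, 10 genes were called in thymic and 9 in splenic γδ T cells, 9 differed between the tissues, and 4, 8 and 7 were called in thymic cells with 0 and with 3 or more UMIs and in splenic cells with 3 or more. The block changed the calls of Rbm47 (difference of tissues and splenic class), Cdc14b and Nav1 (thymic cells with 0 UMIs) and Chd7 (splenic cells with 0 UMIs).

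On Trgv6-positive thymic cells, a class added after seeing the data, Sidt1 turned to −1.86 and Pdlim4 to −0.62. Over the genes taken singly, 699 alternatives stayed on the same side of the threshold, 30 lost the call, 23 gained one and 2 changed direction with a call in either fit. A change of direction without a call in either fit was counted among the 699. The causes were not tested. Few KO cells limit the 2 classes with 0 UMIs, and low counts the WT levels of Pdlim4 and Rgmb in DN cells.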
